A study of Mus musculus with 32 samples.

Results

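The lysosomal enzymes and membrane proteins are described here as a set of 31 genes, found by their symbols among the 41585 genes listed in each of the count tables of mouse liver RNA-seq. All 31 members were listed once in each table and all 31 passed the low-count filter in both sexes, beside 13222 genes tested in females and 13456 in males. The set holds 10 proteases, 8 enzymes that cleave sugars from glycans, 5 enzymes and activators that work on sphingolipids or lipid-linked proteins, 6 membrane proteins and 2 transcription factors. The rule that takes the members uses their symbols and no measured value, but the list was drawn up with earlier results of these data known.

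The lysosome is the acidic compartment in which cells break down material taken up from outside and their own worn parts. Its soluble hydrolases are made in the endoplasmic reticulum, tagged on their sugars in the Golgi and carried to the lysosome, where a membrane lined with glycosylated proteins holds them. In the liver, hepatocytes use lysosomes in autophagy and lipid turnover, and macrophages, which engulf dead cells and lipid, are rich in them. Transcription factors of the family of Tfeb and Tfec bind a short DNA motif with the core CACGTG that is found near the start of many lysosomal genes.

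The liver RNA came from male and female mice on a C57Bl/6J background, either wildtype (WT) or lacking Cyp2b9, Cyp2b10 and Cyp2b13 (Cyp2b-null), a line made with CRISPR/Cas9. The WT mice were bought from The Jackson Laboratory and are not stated to be littermates of the null mice. Mice were 10 weeks old at the start and were fed a normal diet (ND) or the CDAHFD, a high-fat diet without choline whose protein is given as L-amino acids, with 62% fat and 0.1% methionine, for 8 weeks. The CDAHFD is used to produce steatohepatitis. There were 8 groups of 4 libraries: ND-fed WT, CDAHFD-fed WT, ND-fed Cyp2b-null and CDAHFD-fed Cyp2b-null of each sex.

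The 32 libraries held 2906411 to 10166959 counted reads, with a median of 5368808. The genotype labels matched the deleted genes: Cyp2b9 had 683 to 3530 reads in WT females and at most 8 in null females, 118 to 364 reads in CDAHFD-fed WT males and 2 to 7 in CDAHFD-fed null males. In ND-fed males, where WT mice held 0 to 15 reads of Cyp2b9, Cyp2b10 had 33 to 97 reads in WT and 1 to 9 in null mice. Summed hepatocyte markers (Alb, Apoa1, Ttr, Serpina1c, Tat and Cps1) reached at least 52594 CPM in every library, where CPM are reads scaled to the size of the library with the TMM factors of edgeR. The CDAHFD-fed Cyp2b-null female library 3 stood apart from the other females on the second principal component, and the ND-fed WT male libraries 2 and 4 stood apart from the other males on theirs. The CDAHFD-fed WT male library 1 lay between the diets on the first component. Without the female library, the counts of lysosomal genes higher and lower on CDAHFD given below were 14 and 4 in WT females and 15 and 3 in null females, and without the CDAHFD-fed male library they were 17 and 3 in WT males. Without both ND-fed WT male libraries they were 14 and 3 in WT males and 20 and 3 in null males. The annotated spans of 13 members overlap other genes, with which they may share reads, since the strand setting of the counting was not given in the sources used here.

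On CDAHFD more lysosomal genes rose than fell in both sexes and both genotypes. The larger rises included those of the proteases Ctsk, Lgmn and Ctsd, the glycan-degrading enzyme Hexa, the saposin precursor Psap and the membrane protein Laptm5. In WT females 13 of the 31 members were up-regulated and 3 down-regulated at an adjusted p under 0.05 (edgeR quasi-likelihood test, Benjamini-Hochberg adjustment over all genes tested), where 13.9% of all genes tested were up-regulated and 10.2% down-regulated. In Cyp2b-null females 18 members were higher and 3 lower, against 16.9% and 13.9% of all genes. WT males had 17 members higher and 3 lower, against 18.0% and 15.0% of all genes, and Cyp2b-null males had 20 higher and 2 lower, against 20.3% and 17.1%. The median log2 change of the 31 members was 0.41 in WT females, 0.45 in null females, 0.45 in WT males and 0.52 in null males, while the medians over all genes tested lay between -0.02 and 0.03. The CDAHFD and ND libraries did not overlap for 17 members in WT females (25.8% of all genes), 20 in null females (30.6%), 18 in WT males (28.4%) and 21 in null males (36.8%).

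**Figure D1:**
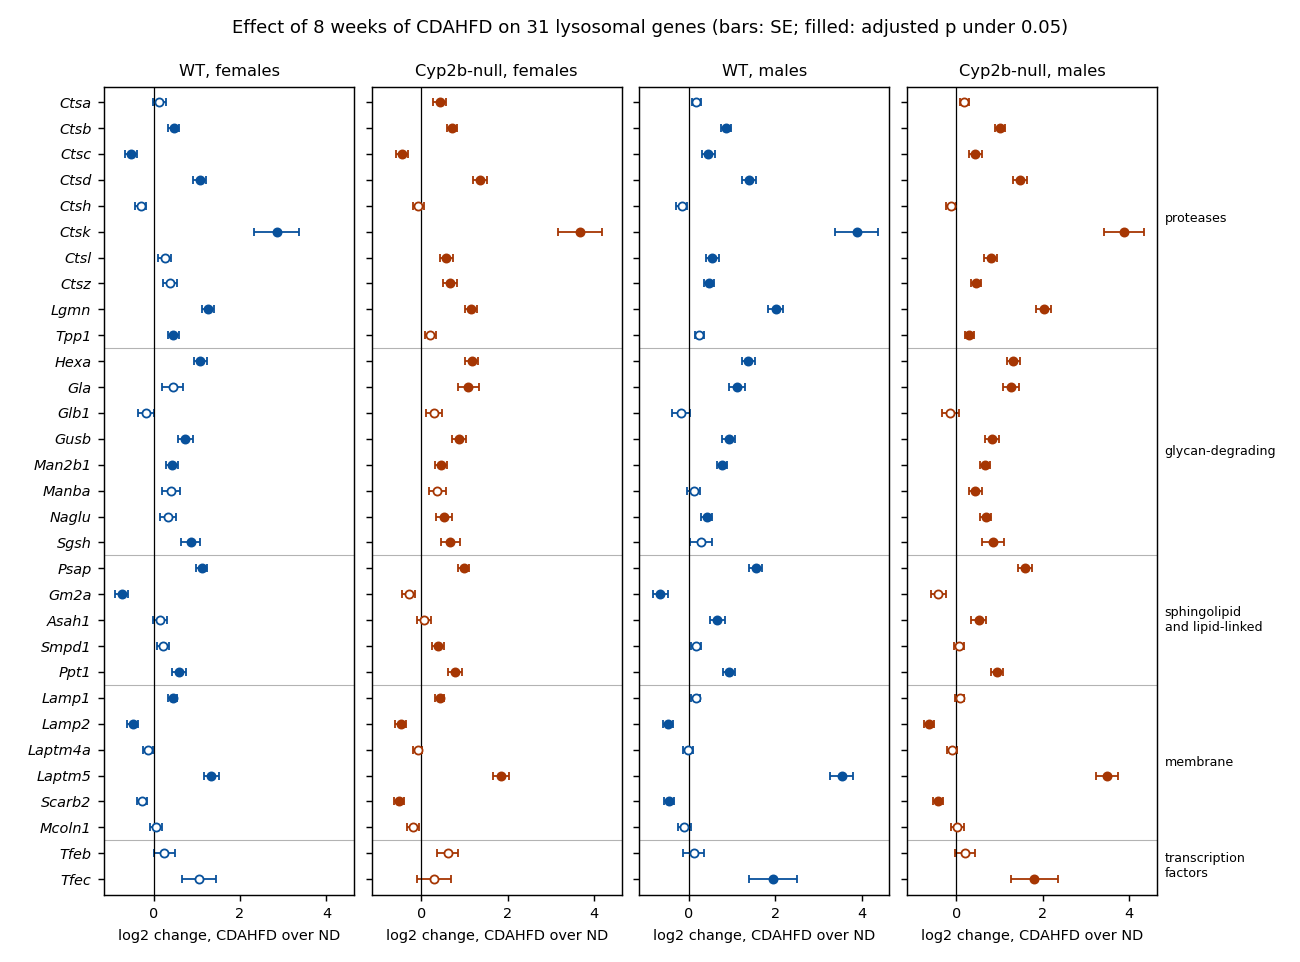
Log2 change on CDAHFD against ND (x axis, edgeR estimate, bars ± SE) for the 31 lysosomal genes in WT females, Cyp2b-null females, WT males and Cyp2b-null males, 4 libraries per group. Filled symbols mark an adjusted p under 0.05: Ctsk had the largest value in each of the 4 comparisons and Lamp2 was lower in all 4.

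These changes are relative to the other genes of the liver. TMM scaling, used throughout, put the median of all genes near 0, whereas scaling to library size alone put it at 0.32 in WT females, 0.28 in null females, 0.37 in WT males and 0.36 in null males. On that scale 23 members were higher and 1 lower in WT females, against 29.5% and 3.71% of all genes. In null females 22 were higher and 0 lower, against 30.4% and 5.04%, in WT males 23 and 0, against 38.0% and 4.31%, and in null males 23 and 1, against 38.3% and 6.07%. The members' medians were then 0.72, 0.70, 0.86 and 0.90, again above those of all genes. Each value below is on the TMM scale, so that a member called lower is lower relative to the typical gene.

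Of the 31 members, 10 were up-regulated in all 4 diet comparisons: the proteases Ctsb, Ctsd, Ctsk and Lgmn, the glycan-degrading enzymes Hexa, Gusb and Man2b1, the lipid-linked Psap and Ppt1, and the membrane protein Laptm5. Lamp2 was down-regulated in all 4. Ctsh, Glb1, Laptm4a, Mcoln1 and Tfeb passed the test in none, and Ctsc was lower in females and higher in males. Within females 14 members were called in both genotypes and within males 19, each in the same direction in WT and null mice. No share of all genes called in several comparisons is set beside these counts. They describe the members and do not show that such agreement is particular to them.

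The promoter stretches below show how the members differ in the motif of the Tfeb family. Each holds the 250 bases that end just before a RefSeq start of the gene (assembly GRCm38.p6), with no annotated exon. For a gene with more than 1 start, the stretch with the most matches is shown. The other RefSeq promoter of Lgmn (chr12:102439679-102439978) held 0 matches. Capitals mark CACGTG, which is its own reverse complement, so that both strands are searched at once. Lamp1 (chr8:13158911-13159160, plus strand) is shown for its 4 matches, Lgmn (chr12:102439093-102439342, minus strand, inside the longer GENCODE span of the gene but outside its exons) for 1 match in a protease that rose in all 4 comparisons, and Ctsk (chr3:95498960-95499209, plus strand) and Lamp2 (chrX:38456461-38456710, minus strand) as the member with the largest rise and the member lower in all 4 comparisons, both with 0 matches.
Lamp1: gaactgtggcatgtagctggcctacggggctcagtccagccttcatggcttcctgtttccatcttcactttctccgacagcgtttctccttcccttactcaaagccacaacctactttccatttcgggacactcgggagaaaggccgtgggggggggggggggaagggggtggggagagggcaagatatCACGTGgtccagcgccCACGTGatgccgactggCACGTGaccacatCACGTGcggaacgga
Lgmn: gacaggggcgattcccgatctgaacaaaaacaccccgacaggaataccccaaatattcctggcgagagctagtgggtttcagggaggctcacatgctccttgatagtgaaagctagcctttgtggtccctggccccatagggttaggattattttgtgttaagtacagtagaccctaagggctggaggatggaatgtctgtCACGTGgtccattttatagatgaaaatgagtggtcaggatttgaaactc
Ctsk: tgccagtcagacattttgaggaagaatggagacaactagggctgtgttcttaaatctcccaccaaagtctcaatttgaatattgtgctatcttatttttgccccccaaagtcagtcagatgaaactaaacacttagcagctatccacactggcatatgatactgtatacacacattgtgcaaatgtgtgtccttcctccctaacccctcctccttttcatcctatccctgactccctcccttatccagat
Lamp2: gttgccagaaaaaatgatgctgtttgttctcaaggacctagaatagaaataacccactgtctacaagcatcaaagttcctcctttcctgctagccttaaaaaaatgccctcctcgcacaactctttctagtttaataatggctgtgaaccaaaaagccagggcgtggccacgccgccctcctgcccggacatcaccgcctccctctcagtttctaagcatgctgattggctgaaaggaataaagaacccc

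RefSeq promoters, from 250 bases before to 50 after a start, were at hand for 28 of the 31 members, and Ctsb, Ctsh and Asah1 had none. CACGTG was present for 10 of the 28 members (35.7%), Ctsa, Ctsd, Ctsl, Lgmn, Gla, Glb1, Naglu, Sgsh, Lamp1 and Mcoln1, and for 8.09% of 27025 genes. A gene counts if any of its promoters holds the motif, and Ctsa and Lgmn each also have a promoter with 0 matches. By promoter the shares were 30.3% of 33 for the members and 7.15% of 32851 for all. The longer palindrome TCACGTGA, which contains it, was present for Ctsa, Ctsd, Gla and Mcoln1 (14.3% of 28 members) and for 1.12% of all genes. A match is a description of the letters and not of binding. In WT females 4 of the 10 members with CACGTG and 8 of the 18 without were up-regulated, in null females 8 and 9, in WT males 5 and 10, and in null males 6 and 12. No member with the motif was down-regulated. Of all genes, 10.2% were down-regulated in WT females, 13.9% in null females, 15.0% in WT males and 17.1% in null males. With only 10 members this says little about the motif. The median log2 changes of members with and without the motif were 0.39 and 0.42 in WT females and 0.56 and 0.42 in null females. In males they were 0.34 and 0.46 in WT and 0.73 and 0.44 in null mice.

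Macrophage genes rose with the lysosomal genes. The 8 macrophage markers fixed for this comparison (Adgre1, Csf1r, Cd68, Lyz2, C1qa, C1qb, Mpeg1 and Fcgr1, none of them a member) were up-regulated in each of the 4 diet comparisons, and their summed level ranged from 339 to 479 CPM in ND-fed and from 918 to 1257 CPM in CDAHFD-fed WT females. The corresponding ranges were 299.8 to 482 and 987 to 1606 CPM in null females, 165 to 284 and 874 to 1569.7 CPM in WT males, and 171 to 207 and 1144 to 1897 CPM in null males. Hepatocyte markers fell by the test for 5 of 6 genes in WT females, 5 of 6 in null females, 6 of 6 in WT males and 4 of 6 in null males. The part of macrophages and hepatocytes in the lysosomal results was not tested. In bulk liver RNA a change in the number of cells of a type and a change in RNA per cell cannot be told apart.

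Per kilobase of the union of annotated exons, Lamp1 was the most abundant member in WT mice on ND and Psap on CDAHFD. This length takes in the exons of all annotated transcripts, such as 6.489 kb for Ctsl, 6.051 kb for Ctsb and 2.675 kb for Lamp1. Which transcripts were present was not measured, and a gene read mainly from a shorter transcript is placed too low. The order therefore holds for this length only. In ND-fed WT females the leading levels were 223 ± 17.8 CPM per kb for Lamp1 (SD, n = 4), 196 ± 17.3 for Psap, 178 ± 14.6 for Ctsz, 159 ± 16.5 for Ctsd and 146 ± 7.45 for Ctsb, and each neighbouring pair differed by less than its SDs together. In CDAHFD-fed WT females they were 423 ± 41.3 for Psap, 332 ± 37.6 for Ctsd, 303 ± 6.85 for Lamp1, 231 ± 16.5 for Ctsz and 201 ± 10.7 for Ctsb, and of the neighbouring pairs only Ctsd and Lamp1 differed by less than their SDs together. In WT males Lamp1 led on ND (230.2 ± 19.99 CPM per kb) and Psap (425 ± 84.5) and Ctsd (408 ± 87.8), which overlapped in spread, on CDAHFD. Ctsk was the lowest member in ND-fed WT females at 0.302 ± 0.238 CPM per kb, and Tfec in ND-fed WT males at 0.148 ± 0.179.

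The proteases were led by Ctsk, Ctsd, Lgmn and Ctsb. Of the 10, 5 were higher and 1 lower in WT females, 7 and 1 in null females, 7 and 0 in WT males, and 8 and 0 in null males, with median log2 changes of 0.42, 0.63, 0.51 and 0.62. The shares of all genes higher were 13.9%, 16.9%, 18.0% and 20.3% in that order. Those lower were 10.2%, 13.9%, 15.0% and 17.1%, and 0 or 1 lower among 10 genes is not far from them. The summed level of the proteases was 2927 to 3108 CPM in ND-fed and 3624 to 4411 CPM in CDAHFD-fed WT females, and 2419.6 to 2824 and 3842 to 4591 CPM in WT males, so that the diets did not overlap in either.

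Ctsk (chr3:95499256-95509362, plus strand) encodes cathepsin K, a cysteine protease that cleaves collagen and is best known from bone-resorbing osteoclasts. It was hardly counted on ND, with 0 to 4 reads per library in WT females, 0 to 3 in null females, 0 to 3 in WT males and 1 to 6 in null males. On CDAHFD the 4 libraries held 3.79, 3.15, 4.72 and 3.06 CPM in WT females and 4.42, 7.73, 6.50 and 4.23 CPM in null females. In males they held 3.55, 4.71, 7.95 and 4.20 CPM in WT and 6.17, 6.57, 7.41 and 9.50 CPM in null mice. No ND library was above 1.24 CPM, so that the diets did not overlap in any of the 4 comparisons. The log2 change was 2.84 ± 0.53 (SE) in WT females (adjusted p = 0.000396), 3.67 ± 0.51 in null females, 3.88 ± 0.49 in WT males and 3.87 ± 0.46 in null males (adjusted p at most 1.80e-05 in these 3). With so few reads on ND its size is loosely fixed, and the 95% interval in WT females ran from 1.75 to 3.94.

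Ctsd (chr7:142375911-142388038, minus strand) encodes cathepsin D, the main aspartic protease of the lysosome. ND-fed WT females held 354, 331, 393 and 418 CPM in the 4 libraries and CDAHFD-fed WT females 672, 747, 849 and 858 CPM. Null females held 408, 334, 358 and 336 CPM on ND and 798, 932, 1228 and 729.6 CPM on CDAHFD. The diets did not overlap in either genotype, with log2 changes of 1.06 ± 0.15 (WT, adjusted p = 2.70e-05) and 1.36 ± 0.15 (null, adjusted p = 1.62e-06). In males the levels were 353, 362, 427 and 321 CPM on ND and 742, 921, 1240.0 and 936 CPM on CDAHFD for WT, and 344, 421, 392 and 372 CPM on ND and 872, 964, 1340.0 and 1042 CPM on CDAHFD for null mice. Here too no libraries of the diets overlapped, and the rise was 2.62-fold in WT males (log2 1.39 ± 0.16, adjusted p = 8.27e-07) and 2.76-fold in null males (log2 1.47 ± 0.16, adjusted p = 3.35e-07).

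Lgmn (chr12:102394084-102439813, minus strand) encodes legumain, which cuts after asparagine and processes other lysosomal proteases. WT females held 75.7, 56.9, 64.5 and 58.6 CPM on ND and 135, 147, 165 and 169 CPM on CDAHFD, and null females 86.9, 72.2, 55.8 and 74.99 CPM on ND and 165, 155, 171 and 151 CPM on CDAHFD. The rise was 2.41-fold in WT (log2 1.27 ± 0.14, adjusted p = 1.42e-06) and 2.21-fold in null females (log2 1.14 ± 0.14, adjusted p = 3.91e-06), without overlap. WT males went from 39.1, 34.8, 43.9 and 26.8 CPM to 99.3, 158, 177 and 149 CPM, and null males from 45.4, 43.9, 38.1 and 38.6 CPM to 147, 144, 211 and 170.4 CPM. In males the fold was 4.02 in WT (log2 2.01 ± 0.18, adjusted p = 3.05e-08) and 4.04 in null mice (log2 2.01 ± 0.18, adjusted p = 2.01e-08).

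Ctsb (chr14:63122462-63145923, plus strand) encodes cathepsin B, an abundant cysteine protease of hepatocytes and macrophages. In WT females it stood at 881, 893, 823 and 932 CPM on ND and 1121, 1267, 1239.9 and 1235 CPM on CDAHFD. In null females it stood at 817, 807, 893 and 691 CPM on ND and 1353, 1355, 1434 and 1139 CPM on CDAHFD. The log2 changes were 0.46 ± 0.12 (adjusted p = 0.00625) and 0.72 ± 0.12 (adjusted p = 0.000113), again without overlap. WT males held 681, 731, 776 and 744 CPM on ND and 1119.9, 1449, 1458 and 1294 CPM on CDAHFD, and null males 763, 706, 710.0 and 702 CPM on ND and 1318, 1308, 1713 and 1453 CPM on CDAHFD. The log2 changes were 0.86 ± 0.12 in WT males (adjusted p = 1.45e-05) and 1.01 ± 0.12 in null males (adjusted p = 1.58e-06).

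Ctsc (chr7:88278085-88310888, plus strand) encodes the dipeptidyl peptidase that activates the serine proteases of immune cell granules, and it was the only member that passed the test in opposite directions in the sexes. WT females held 194, 236, 161 and 171 CPM on ND and 129.7, 119, 121 and 158 CPM on CDAHFD, and null females 139, 193, 174 and 196 CPM on ND and 132, 133, 130.1 and 120.4 CPM on CDAHFD. It fell by 0.53 on the log2 scale in WT females (adjusted p = 0.00945) and by 0.45 in null females (adjusted p = 0.0219), without overlap. WT males held 61.4, 67.4, 71.4 and 90.00 CPM on ND and 73.6, 106, 104 and 113 CPM on CDAHFD, and null males 77.02, 66.9, 59.9 and 59.8 CPM on ND and 100.3, 75.1, 96.1 and 86.7 CPM on CDAHFD. In males the diets overlapped while the fitted change was 0.45 ± 0.15 in WT (adjusted p = 0.0216) and 0.44 ± 0.15 in null mice (adjusted p = 0.0230). These calls rest on few libraries. The call was lost in null females without library 2 or 4 of the ND-fed Cyp2b-null females or library 4 of the CDAHFD-fed Cyp2b-null females (adjusted p 0.0564 to 0.0716), in WT males without library 1 or 2 of the ND-fed WT males or library 2, 3 or 4 of the CDAHFD-fed WT males (adjusted p 0.0540 to 0.0742) and in null males without library 3 or 4 of the ND-fed Cyp2b-null males or library 1 or 3 of the CDAHFD-fed Cyp2b-null males (adjusted p 0.0649 to 0.0715). Scaled to library size alone, the female values were -0.20 and -0.19 and neither passed the test.

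The remaining proteases were each called in at most 3 of the 4 comparisons. Ctsl, a cysteine protease of the family of cathepsin B, was up-regulated in null females (0.58 ± 0.15), WT males (0.55 ± 0.14) and null males (0.79 ± 0.14), with a log2 change of 0.26 ± 0.15 in WT females (adjusted p = 0.243). Without the ND-fed WT male libraries 2 and 4 the value of Ctsl in WT males was 0.45 and did not pass (adjusted p = 0.0677). Ctsz, a carboxypeptidase, was higher in null females (0.67 ± 0.16), WT males (0.47 ± 0.11) and null males (0.45 ± 0.11), and its value of 0.38 ± 0.16 in WT females did not pass (adjusted p = 0.0890). That value passed without library 3 of the CDAHFD-fed Cyp2b-null females (adjusted p = 0.00644), in a fit to the 2 groups compared (adjusted p = 0.0307) and with library size scaling alone (0.70). Ctsa, the carboxypeptidase that protects β-galactosidase and neuraminidase, passed in null females alone (0.43 ± 0.15, adjusted p = 0.0345), and not without library 2, 3 or 4 of the ND-fed Cyp2b-null females or library 3 of the CDAHFD-fed Cyp2b-null females (adjusted p 0.0716 to 0.133). Tpp1, a tripeptidyl peptidase, was higher in WT females (0.46 ± 0.13) and null males (0.30 ± 0.11), the latter not without library 2 or 3 of the ND-fed Cyp2b-null males or library 1, 3 or 4 of the CDAHFD-fed Cyp2b-null males (adjusted p 0.0507 to 0.118). Ctsh, an aminopeptidase, had values of -0.30 ± 0.13, -0.07 ± 0.13, -0.17 ± 0.12 and -0.13 ± 0.12 in WT females, null females, WT males and null males. The first of these passed without library 3 of the CDAHFD-fed Cyp2b-null females (adjusted p = 0.0249) and in the fit to both sexes (adjusted p = 0.0450), and the third without the ND-fed WT male libraries 2 and 4 (-0.34, adjusted p = 0.0469).

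Of the 8 glycan-degrading enzymes, 4 were higher in WT females, 6 in null females, 5 in WT males and 7 in null males. Of all genes tested, 13.9%, 16.9%, 18.0% and 20.3% were higher in that order. The enzymes called lower numbered 0 in each of the 4 comparisons. The shares of all genes lower were 10.2%, 13.9%, 15.0% and 17.1%, so that 0 among 8 genes says little. The median log2 changes of the 8 enzymes were 0.43, 0.60, 0.59 and 0.75. Their summed level was 253 to 281 CPM on ND and 348 to 432 CPM on CDAHFD in WT females, and 256 to 284 and 404 to 516 CPM in WT males.

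Hexa (chr9:59539540-59565109, plus strand) encodes the alpha subunit of β-hexosaminidase, which trims ganglioside sugars. WT females held 50.4, 47.96, 56.99 and 52.7 CPM on ND and 97.1, 119.6, 113 and 111 CPM on CDAHFD, and null females 57.7, 56.1, 51.1 and 53.04 CPM on ND and 102, 121, 164 and 103 CPM on CDAHFD. All CDAHFD-fed females lay above all ND-fed females, with log2 changes of 1.08 ± 0.14 (WT, adjusted p = 1.20e-05) and 1.17 ± 0.14 (null, adjusted p = 4.49e-06). WT males held 46.9, 46.5, 59.01 and 38.02 CPM on ND and 87.8, 119, 148 and 139 CPM on CDAHFD, and null males 51.7, 55.3, 47.9 and 55.8 CPM on ND and 129.6, 122, 145 and 127 CPM on CDAHFD. The diets were again separate, by 2.58-fold in WT males (log2 1.37 ± 0.15, adjusted p = 5.13e-07) and 2.49-fold in null males (log2 1.31 ± 0.15, adjusted p = 6.32e-07).

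Gla (chrX:134588149-134601125, minus strand) encodes α-galactosidase A, which removes terminal galactose from glycolipids. WT females held 4.80, 8.58, 9.84 and 5.89 CPM on ND and 9.15, 7.28, 10.9 and 10.5 CPM on CDAHFD, which overlapped, and the log2 change of 0.44 ± 0.25 did not pass (adjusted p = 0.216). Null females held 3.95, 7.42, 8.20 and 5.40 CPM on ND and 14.5, 12.5, 14.98 and 10.95 CPM on CDAHFD, a log2 change of 1.09 ± 0.24 (adjusted p = 0.00184). WT males went from 6.71, 9.60, 8.76 and 11.6 CPM to 16.4, 24.4, 21.2 and 16.97 CPM, and null males from 10.5, 8.28, 9.12 and 6.76 CPM to 19.3, 19.3, 23.4 and 22.6 CPM. Both passed, with log2 changes of 1.11 ± 0.18 (adjusted p = 8.12e-05) and 1.27 ± 0.18 (adjusted p = 1.38e-05). The difference of the diet effect between genotypes did not pass in females (log2 0.65 ± 0.35, null minus WT, adjusted p = 0.760).

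Gusb, the β-glucuronidase, was up-regulated in all 4 comparisons, by log2 0.73 ± 0.17 in WT females, 0.88 ± 0.17 in null females, 0.92 ± 0.16 in WT males and 0.82 ± 0.16 in null males. Man2b1, the α-mannosidase, was higher by 0.43 ± 0.14, 0.45 ± 0.14, 0.76 ± 0.12 and 0.67 ± 0.12 in the same order. Its female calls were lost in WT without library 2 or 3 of the ND-fed WT females or library 2 or 3 of the CDAHFD-fed WT females (adjusted p 0.0531 to 0.0885) and in null mice without library 3 of the ND-fed Cyp2b-null females (adjusted p = 0.0589). Naglu and Sgsh, which both degrade heparan sulfate, were each called in 3 of the 4 comparisons. Naglu was called in null females (0.53 ± 0.19), WT males (0.41 ± 0.13) and null males (0.67 ± 0.13). It was lost in null females without library 2, 3 or 4 of the ND-fed Cyp2b-null females or library 1 or 3 of the CDAHFD-fed Cyp2b-null females (adjusted p 0.0612 to 0.135) and in WT males without library 1 of the ND-fed WT males or library 3 of the CDAHFD-fed WT males (adjusted p 0.0679 to 0.0714). Sgsh was called in WT females (0.86 ± 0.21), null females (0.67 ± 0.22) and null males (0.85 ± 0.26). It was lost in null females without library 2 of the ND-fed Cyp2b-null females or library 1 or 2 of the CDAHFD-fed Cyp2b-null females (adjusted p 0.0515 to 0.0999) and in null males without library 3 of the CDAHFD-fed Cyp2b-null males (adjusted p = 0.0665). Manba, the β-mannosidase, passed in null males alone (0.43 ± 0.15, adjusted p = 0.0265), and not without library 1 or 2 of the ND-fed Cyp2b-null males or library 3 or 4 of the CDAHFD-fed Cyp2b-null males (adjusted p 0.0520 to 0.0920). Glb1, the β-galactosidase, had values of -0.18 ± 0.18, 0.30 ± 0.19, -0.19 ± 0.21 and -0.14 ± 0.20 in the 4 comparisons and passed in none.

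Among the 5 sphingolipid and lipid-linked genes, 2 were higher and 1 lower in WT females, 3 and 0 in null females, 3 and 1 in WT males, and 3 and 0 in null males. The shares of all genes higher were 13.9%, 16.9%, 18.0% and 20.3% in that order. Those lower were 10.2%, 13.9%, 15.0% and 17.1%, and 0 or 1 lower among 5 genes is not far from them. Of the activators that lift lipids out of membranes for the hydrolases, Psap rose in all 4 comparisons and Gm2a was called lower in WT mice of both sexes, in males not without 2 of the ND libraries.

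Psap (chr10:60277627-60302597, plus strand) encodes prosaposin, the precursor that is cut into the saposins. In WT females it stood at 551, 599, 508 and 494 CPM on ND and 1008, 1144, 1256 and 1236 CPM on CDAHFD, and in null females at 611, 586, 474 and 642 CPM on ND and 1192, 1065, 1251 and 1087 CPM on CDAHFD. No libraries overlapped, and the log2 change was 1.11 ± 0.13 in WT (adjusted p = 2.24e-06) and 0.99 ± 0.13 in null females (adjusted p = 7.72e-06). WT males held 386, 374, 466 and 372 CPM on ND and 871, 1128, 1425 and 1242 CPM on CDAHFD. Null males held 428, 432, 418 and 450.0 CPM on ND and 1102, 1084, 1633 and 1368 CPM on CDAHFD. The rise was 2.92-fold in WT males (log2 1.55 ± 0.16, adjusted p = 1.76e-07) and 3.002-fold in null males (log2 1.59 ± 0.16, adjusted p = 9.34e-08).

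Gm2a (chr11:55098115-55113029, plus strand) encodes the activator that presents ganglioside to β-hexosaminidase, whose alpha subunit Hexa rose in the same libraries. WT females held 156, 175, 159.8 and 222 CPM on ND and 104, 98.04, 127 and 99.00 CPM on CDAHFD, with no overlap. It fell by 0.74 on the log2 scale (adjusted p = 0.000839), and still passed when libraries were scaled to their size alone (-0.41). Null females held 172, 125, 151 and 149.8 CPM on ND and 128, 127, 136 and 98.1 CPM on CDAHFD, which overlapped, a log2 change of -0.29 ± 0.15 (adjusted p = 0.138). WT males held 193, 291, 196 and 322 CPM on ND and 148, 199, 154 and 133 CPM on CDAHFD, and null males 291, 203, 224 and 174 CPM on ND and 179, 163, 166 and 159 CPM on CDAHFD. Both overlapped between diets. Gm2a was called lower in WT males (-0.66 ± 0.17, adjusted p = 0.00605), where its 2 highest values on ND were those of libraries 2 and 4, which stood apart on the second principal component. Without both the value was -0.28 (adjusted p = 0.244), and with library size scaling alone it was -0.27, and neither passed. The value in null males did not pass (-0.42 ± 0.17, adjusted p = 0.0655). It passed without library 4 of the ND-fed WT males or library 4 of the ND-fed Cyp2b-null males (adjusted p 0.0303 to 0.0482), without the ND-fed WT male libraries 2 and 4 together (adjusted p = 0.0308), with no low-count filter (adjusted p = 0.0173), in a fit to the 2 groups compared (adjusted p = 0.0348) and in the fit to both sexes (adjusted p = 0.0455).

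Ppt1, which removes palmitate from proteins, was up-regulated by log2 0.58 ± 0.17 in WT females, 0.78 ± 0.17 in null females, 0.92 ± 0.14 in WT males and 0.93 ± 0.14 in null males, and the first call was lost without library 1 or 4 of the ND-fed WT females or library 4 of the CDAHFD-fed WT females (adjusted p 0.0572 to 0.0735). Asah1, the acid ceramidase, was higher in WT males (0.66 ± 0.17) and null males (0.52 ± 0.17), the latter not without library 1 or 2 of the ND-fed Cyp2b-null males or library 3 of the CDAHFD-fed Cyp2b-null males (adjusted p 0.0694 to 0.123) and the former not without the ND-fed WT male libraries 2 and 4 (adjusted p = 0.104), and had values of 0.15 ± 0.16 and 0.06 ± 0.16 in WT and null females. Smpd1, the acid sphingomyelinase, was called in null females alone (0.39 ± 0.13, adjusted p = 0.0345), and not without library 1, 2 or 4 of the ND-fed Cyp2b-null females or library 3 or 4 of the CDAHFD-fed Cyp2b-null females (adjusted p 0.0654 to 0.103).

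**Figure D2:**
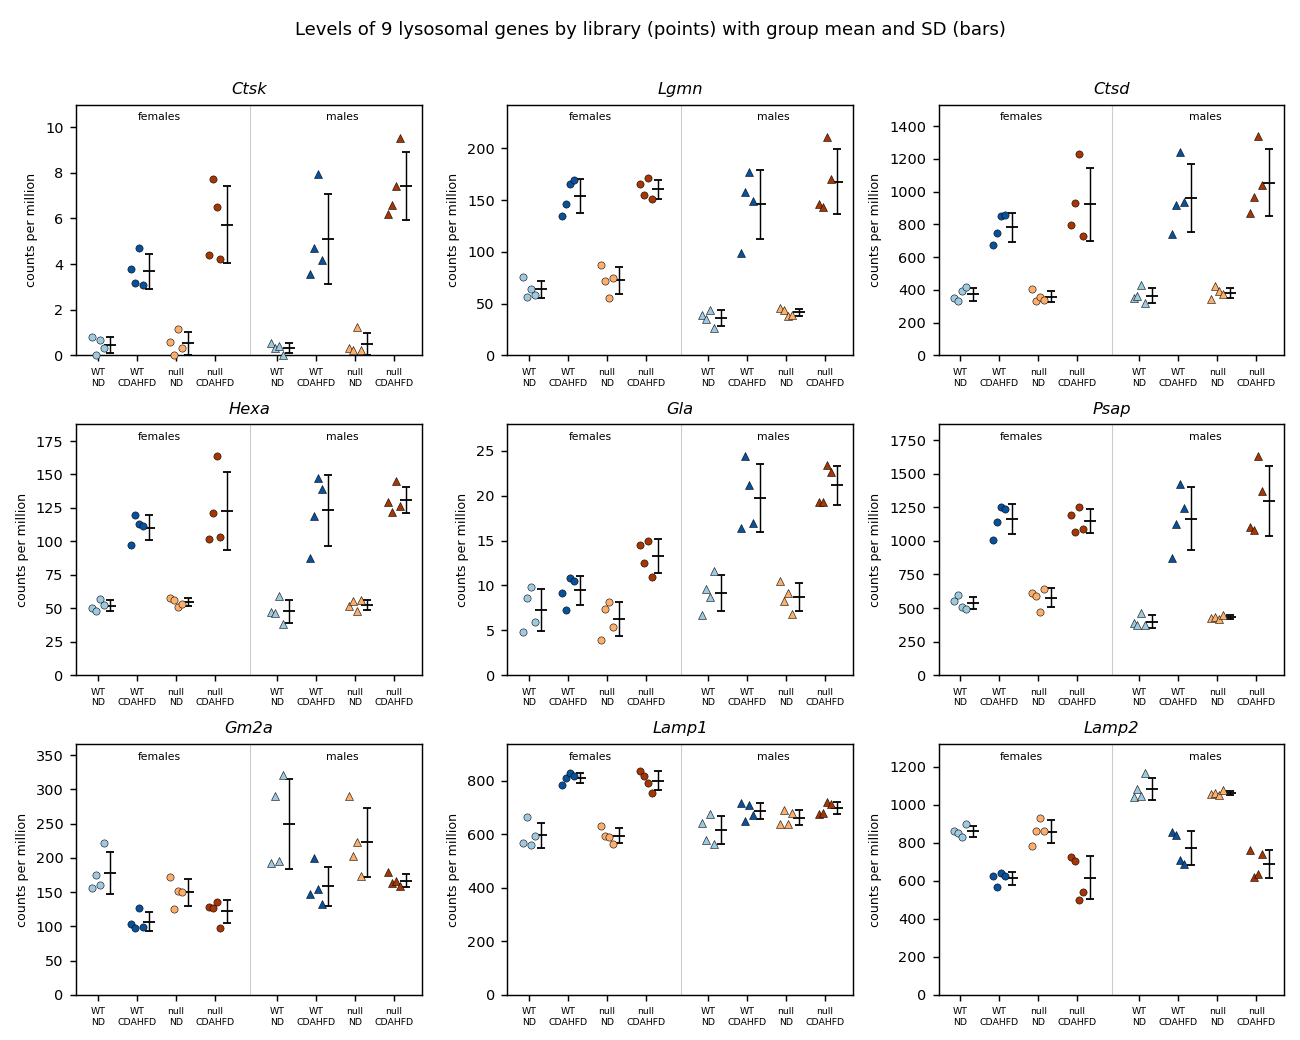
TMM-scaled CPM (y axis, one panel per gene) in each of the 4 libraries of the 8 groups for Ctsk, Lgmn, Ctsd, Hexa, Gla, Psap, Gm2a, Lamp1 and Lamp2, with mean ± SD, circles for females and triangles for males. Psap in WT females averaged 538 ± 47.4 CPM on ND and 1161 ± 113 CPM on CDAHFD, while Lamp2 averaged 861 ± 29.00 and 614 ± 33.95 CPM.

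The membrane proteins included members that rose and members that fell. Of the 6, 2 were higher and 1 lower in WT females, 2 and 2 in null females, 1 and 2 in WT males, and 1 and 2 in null males, with median log2 changes of -0.04, -0.14, -0.06 and -0.05. The shares of all genes higher were 13.9%, 16.9%, 18.0% and 20.3% in that order. Those lower were 10.2%, 13.9%, 15.0% and 17.1%. Counts of 1 among 6 genes lie near these shares. The summed CPM of the 6 was 1918 to 2023 on ND and 1824 to 1937 on CDAHFD in WT females, which overlapped. In WT males it was 2097 to 2273 on ND and 1819 to 2027 on CDAHFD, which did not.

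Lamp1 and Lamp2 encode the heavily glycosylated proteins that coat the inner face of the lysosomal membrane, and Lamp2 also serves in autophagy. Lamp1 (chr8:13159161-13175338, plus strand) held 566, 664, 560.4 and 592 CPM in ND-fed and 785, 809.8, 828 and 817 CPM in CDAHFD-fed WT females. It rose by log2 0.44 ± 0.11 in WT females (adjusted p = 0.00408) and 0.43 ± 0.11 in null females (adjusted p = 0.00454), and its values in WT and null males were 0.16 ± 0.10 and 0.08 ± 0.10, neither of which passed.

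Lamp2 (chrX:38401357-38456454, minus strand) held 861, 851, 830.1 and 899 CPM on ND and 623, 565, 642 and 627 CPM on CDAHFD in WT females, and 784, 860.4, 930.5 and 860.2 CPM on ND and 723, 706, 498 and 542 CPM on CDAHFD in null females. In WT males it held 1041, 1083, 1046 and 1166 CPM on ND and 859, 839, 708 and 686 CPM on CDAHFD, and in null males 1057, 1060.4, 1054 and 1080.2 CPM on ND and 762, 618, 634 and 740.3 CPM on CDAHFD. Each CDAHFD library was below each ND library of its own sex and genotype. Lamp2 fell by 0.49 on the log2 scale in WT females (adjusted p = 0.00803), 0.48 in null females, 0.49 in WT males and 0.63 in null males (adjusted p at most 0.00779 in these 3). With library size scaling alone the values were -0.16, -0.22, -0.11 and -0.27, and only the last passed (adjusted p = 0.0293). Each fall was smaller on that scale, and outside null males the call depended on the scaling.

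Scarb2 (chr5:92441314-92506833, minus strand) encodes the receptor that carries glucocerebrosidase to the lysosome. WT females held 208, 236, 211 and 194 CPM on ND and 175, 174, 162 and 195 CPM on CDAHFD, a log2 change of -0.26 ± 0.12 (adjusted p = 0.109) that passed by DESeq2 (adjusted p = 0.0492) and in the fit to both sexes (adjusted p = 0.0431). Null females held 227, 282, 224 and 241 CPM on ND and 168, 179, 162 and 174 CPM on CDAHFD, and the fall of 0.51 passed (adjusted p = 0.00225). WT males held 271, 246, 281 and 234 CPM on ND and 192, 199, 167 and 194 CPM on CDAHFD, and null males 268, 258, 241 and 251 CPM on ND and 199, 157, 191 and 209 CPM on CDAHFD. The male groups did not overlap, with falls of 0.46 in WT (adjusted p = 0.00288) and 0.43 in null mice (adjusted p = 0.00364). None of these passed with library size scaling alone, where the values were 0.06, -0.25, -0.07 and -0.07.

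Laptm5 (chr4:130913125-130936141, plus strand) encodes a lysosomal membrane protein made mainly by blood cells, and it rose more than any other membrane protein. WT females held 11.01, 7.02, 8.14 and 8.32 CPM on ND and 20.5, 19.4, 26.7 and 22.3 CPM on CDAHFD, and null females 6.38, 7.01, 4.29 and 7.09 CPM on ND and 24.7, 25.2, 20.2 and 21.5 CPM on CDAHFD. The rise was 2.53-fold in WT (log2 1.34 ± 0.18, adjusted p = 1.23e-05) and 3.57-fold in null females (log2 1.84 ± 0.18, adjusted p = 3.79e-07). WT males held 2.54, 3.58, 3.23 and 1.93 CPM on ND and 19.8, 34.6, 43.8 and 35.7 CPM on CDAHFD, and null males 3.17, 3.80, 3.31 and 3.49 CPM on ND and 28.02, 30.5, 50.3 and 44.9 CPM on CDAHFD. The rise was 11.6-fold in WT males (log2 3.54 ± 0.27, adjusted p = 4.33e-09) and 11.2-fold in null males (log2 3.49 ± 0.26, adjusted p = 2.91e-09), and no libraries overlapped between diets in any of the 4 comparisons. The macrophage markers rose in the same libraries.

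Laptm4a, a relative of Laptm5, had log2 changes of -0.13 ± 0.11, -0.08 ± 0.11, -0.01 ± 0.11 and -0.11 ± 0.11 in WT females, null females, WT males and null males. Mcoln1, a cation channel that releases calcium from the lysosome, had values of 0.05 ± 0.14, -0.19 ± 0.14, -0.11 ± 0.15 and 0.02 ± 0.15. Neither passed the test in any comparison, and with library size scaling alone Laptm4a was called higher in WT males (0.37) and Mcoln1 in WT females (0.38).

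Of the transcription factors, Tfeb (chr17:47737030-47792419, plus strand), which switches on lysosomal genes when it enters the nucleus, was not called in any comparison. It held 5.81, 8.19, 9.84 and 11.4 CPM on ND and 11.8, 12.9, 9.43 and 8.38 CPM on CDAHFD in WT females, and 9.72, 10.8, 4.68 and 7.77 CPM on ND and 12.2, 9.38, 15.9 and 14.1 CPM on CDAHFD in null females. In males it held 8.16, 9.92, 6.20 and 10.5 CPM on ND and 5.60, 9.22, 10.5 and 11.7 CPM on CDAHFD (WT) and 9.30, 7.16, 6.63 and 10.5 CPM on ND and 11.4, 11.3, 7.65 and 8.29 CPM on CDAHFD (null). The diets overlapped in all 4 pairs of groups. The log2 changes were 0.25 ± 0.25, 0.61 ± 0.25, 0.11 ± 0.24 and 0.19 ± 0.24, and the 95% interval in WT males ran from -0.39 to 0.61. The value in null females (adjusted p = 0.0648) passed without library 2 of the ND-fed Cyp2b-null females or library 2 of the CDAHFD-fed Cyp2b-null females (adjusted p 0.0355 to 0.0449), and with library size scaling alone (0.86, adjusted p = 0.0103). These are levels of RNA and do not bear on where the protein is.

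Tfec (chr6:16833373-16898441, minus strand), a relative of Tfeb best known from macrophages, was low, with at most 45 reads in any library. WT males held 0.544, 0.488, 2.29 and 0 CPM on ND and 1.68, 4.51, 4.61 and 3.50 CPM on CDAHFD, and null males 1.09, 0.671, 1.24 and 1.96 CPM on ND and 3.80, 2.67, 3.70 and 7.68 CPM on CDAHFD. Tfec was up-regulated in both, by log2 1.95 ± 0.56 (adjusted p = 0.0110) and 1.80 ± 0.54 (adjusted p = 0.0117), with overlap between the diets in WT males only. Without the ND-fed WT male libraries 2 and 4 the former was 1.27 and did not pass (adjusted p = 0.101). WT females held 3.80, 1.56, 0.678 and 1.39 CPM on ND and 4.24, 5.10, 3.49 and 3.87 CPM on CDAHFD, and null females 1.82, 3.01, 0.781 and 2.53 CPM on ND and 3.64, 2.14, 2.35 and 2.86 CPM on CDAHFD. The female values of 1.06 ± 0.39 (adjusted p = 0.0561) and 0.30 ± 0.40 (adjusted p = 0.602) did not pass. The first did without library 1 of the ND-fed WT females or library 3 of the ND-fed Cyp2b-null females (adjusted p 0.00534 to 0.0483), by DESeq2 (adjusted p = 0.0491), with the replicate block (adjusted p = 0.0370) and with library size scaling alone (adjusted p = 0.0137).

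No effect of the loss of the Cyp2b genes on the lysosomal genes was detected. In the comparison of Cyp2b-null with WT mice, 0 of 31 members passed on ND in females (0.0756% of all genes did), 0 on CDAHFD in females (0.0227%), 0 on ND in males (0.0372%) and 0 on CDAHFD in males (0.0297%) by edgeR, and 0 by DESeq2 as well. At an unadjusted p under 0.05 there were 3 of the 31 members on ND in females, Ctsl (-0.33 ± 0.15), Glb1 (-0.45 ± 0.19) and Laptm5 (-0.46 ± 0.20), against 5.74% of all genes, and 1 on CDAHFD in females, Gla (0.47 ± 0.22), against 5.82%. In males there were 0 on ND, against 8.25% of all genes, and 0 on CDAHFD, against 3.61%. The median log2 difference of the members was -0.06 on ND and 0.06 on CDAHFD in females, and 0.04 and 0.05 in males. The 95% interval of the difference lay within 1 log2 unit of 0 for 29 of the 31 members on ND and 29 on CDAHFD in females, and for 28 and 29 in males. That bound is wider than the median diet effects of the members, 0.41 to 0.52. Genotype differences of that size could go undetected. The largest values on CDAHFD belonged to the sparsely counted Ctsk, at 0.64 ± 0.35 in females and 0.50 ± 0.32 in males.

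The diet effect of the members was also not shown to differ between the genotypes. In each sex 0 of 31 members passed the test of that difference, where 0% of all genes did in females and 0.00743% in males, and DESeq2 gave 0 as well. In females 1 member, Gm2a, had an unadjusted p under 0.05, with a log2 difference of 0.44 ± 0.21 (null minus WT, adjusted p = 0.760), against 6.26% of all genes, and in males there were 0, against 6.08%. Members called in 1 genotype alone, such as Gla, Ctsl, Ctsz and Scarb2 in null females and Tpp1 in WT females, are therefore not shown to respond differently in it.

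**Figure D3:**
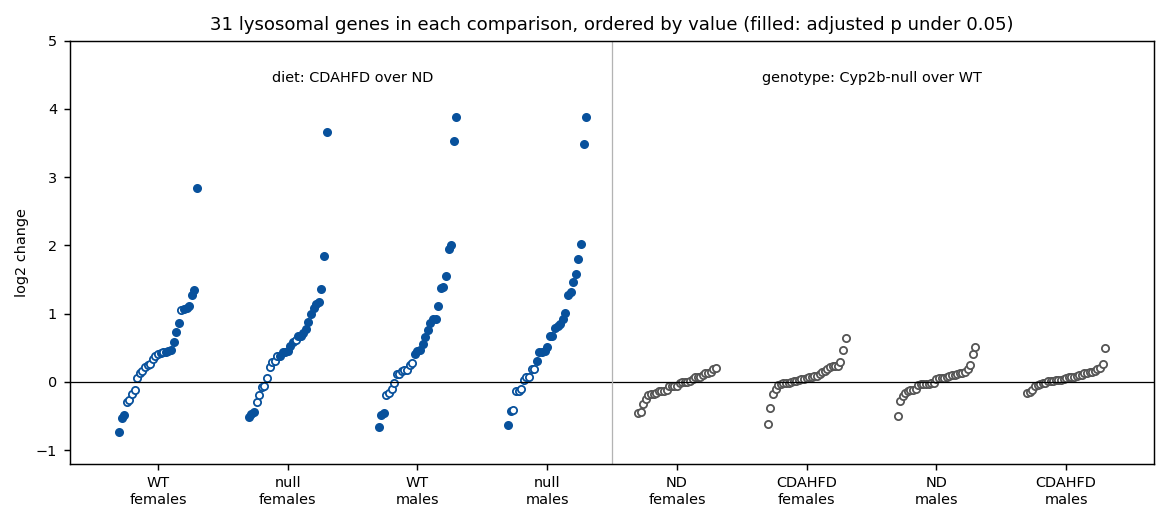
Log2 change of the 31 members in the 4 diet comparisons (CDAHFD against ND) and the 4 genotype comparisons (Cyp2b-null against WT), members ordered by value within each comparison and filled where the adjusted p was under 0.05. Diet values reach from -0.74 (Gm2a, WT females) to 3.88 (Ctsk, WT males), whereas no genotype value passed the test.

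The sexes differed in the diet effect of a few members. In a fit to all 32 libraries, 2 of 31 members passed the test of the difference between males and females in WT mice (0.970% of all genes) and 3 in null mice (3.40% of all genes). At an unadjusted p under 0.05 there were 7 of 31 members in WT mice, against 10.2% of all genes, and 7 in null mice, against 19.2%. The log2 diet effect was larger in males for 21 of 31 members in WT and 20 of 31 in null mice. No share of all genes is set beside these counts. Among all genes tested, a larger share was called for diet in males than in females of each genotype.

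**Figure D4:**
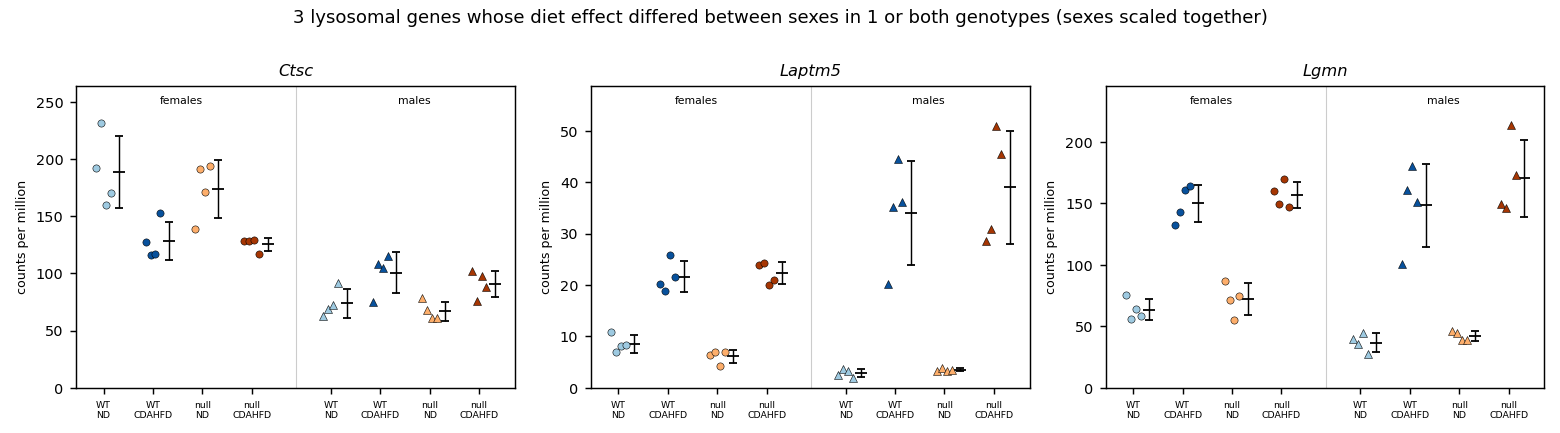
CPM of Ctsc, Laptm5 and Lgmn (y axis) in the 4 libraries of the 8 groups, with all 32 libraries scaled together, mean ± SD. Ctsc fell on CDAHFD in females and not in males, and Laptm5 and Lgmn averaged less in ND-fed WT males than in ND-fed WT females.

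With the sexes scaled together, Laptm5 averaged 8.55 ± 1.71 CPM (SD, n = 4) in ND-fed and 21.6 ± 3.06 CPM in CDAHFD-fed WT females, and 2.87 ± 0.747 and 34.00 ± 10.1 CPM in WT males. Its log2 diet effect was 2.22 ± 0.33 larger in males in WT (adjusted p = 9.73e-05) and 1.67 ± 0.33 larger in null mice (adjusted p = 0.00337). Ctsc averaged 189 ± 31.5 and 128 ± 17.00 CPM in WT females and 73.9 ± 12.7 and 101 ± 17.8 CPM in WT males. Its diet effects differed by 1.001 ± 0.21 in WT (adjusted p = 0.00904) and 0.91 ± 0.21 in null mice (adjusted p = 0.0100), males minus females. Lgmn averaged 63.4 ± 8.59 and 150.1 ± 15.1 CPM in WT females and 36.8 ± 7.37 and 148 ± 33.7 CPM in WT males, so that the sexes were close on CDAHFD and apart on ND. The difference passed in null mice (0.89 ± 0.22, adjusted p = 0.0213), and not without library 1 of the ND-fed Cyp2b-null females or library 3 of the CDAHFD-fed Cyp2b-null males (adjusted p 0.0583 to 0.0736). In WT mice it did not pass (0.76 ± 0.23, adjusted p = 0.113), but did without library 1 of the CDAHFD-fed WT males (adjusted p = 0.0175) and with no low-count filter (adjusted p = 0.0475). The summed macrophage markers, scaled within each sex, were 339 to 479 CPM in ND-fed WT females and 165 to 284 CPM in ND-fed WT males, and their part in these differences was not tested. The genotype effect differed between the sexes for 0 members on either diet by edgeR (0.00713% of all genes on each), and 0 had an unadjusted p under 0.05 (4.61% of all genes on ND and 3.15% on CDAHFD).

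The rest of the lysosomal genes moved in the same direction on balance, with smaller medians. A further 66 genes of the lysosome were listed, of which 64 were tested and Lamp3 and Atp6v1c1 were too low. In WT females 17 were higher and 3 lower, against 13.9% and 10.2% of all genes tested. In null females 23 and 5 were, against 16.9% and 13.9%. The numbers were 28 and 4 in WT males, against 18.0% and 15.0%, and 25 and 4 in null males, against 20.3% and 17.1%. The median log2 changes were 0.25, 0.20, 0.31 and 0.28. Of 37 further hydrolases and other lysosomal proteins tested, 13, 18, 18 and 17 were higher and 3, 4, 4 and 4 lower in the same order. Of 15 subunits of the V-ATPase, the pump that acidifies the lysosome, 3, 3, 6 and 4 were higher and 0, 1, 0 and 0 lower. Of 12 genes of sorting and control, 1, 2, 4 and 4 were higher and 0 lower in each. The same shares of all genes apply to these short lists, and some of their counts lie near them.

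The largest changes among them in WT females were those of Cd63 (log2 3.06 ± 0.25, adjusted p = 2.72e-08), a tetraspanin of late endosomes, Cd68 (2.52 ± 0.23, adjusted p = 1.28e-07), a macrophage lysosomal glycoprotein, and Arsa (2.19 ± 0.14, adjusted p = 3.27e-10), the arylsulfatase that works with a saposin on sulfatide. In WT males they were Cd63 (4.11 ± 0.35, adjusted p = 1.78e-08), Ctss (3.96 ± 0.30, adjusted p = 4.02e-09), a cathepsin of antigen-presenting cells, and Cd68 (3.70 ± 0.27, adjusted p = 3.17e-09). Arsa changed by 0.61 ± 0.11 in WT males. Cd68 is also 1 of the 8 macrophage markers. By genotype 0 of the 64 passed in each of the 4 comparisons. The numbers with an unadjusted p under 0.05 were 5 on ND and 2 on CDAHFD in females, against 5.74% and 5.82% of all genes. In males they were 8 and 2, against 8.25% and 3.61%. The lowest adjusted p on ND in males was that of Atp6v0d2, a V-ATPase subunit of macrophages and osteoclasts, with a log2 difference of -1.54 ± 0.43 (adjusted p = 0.219). It passed by DESeq2 (adjusted p = 0.0182), with no low-count filter (adjusted p = 6.30e-05) and without library 2 of the ND-fed WT males (adjusted p = 0.0483).

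**Figure D5:**
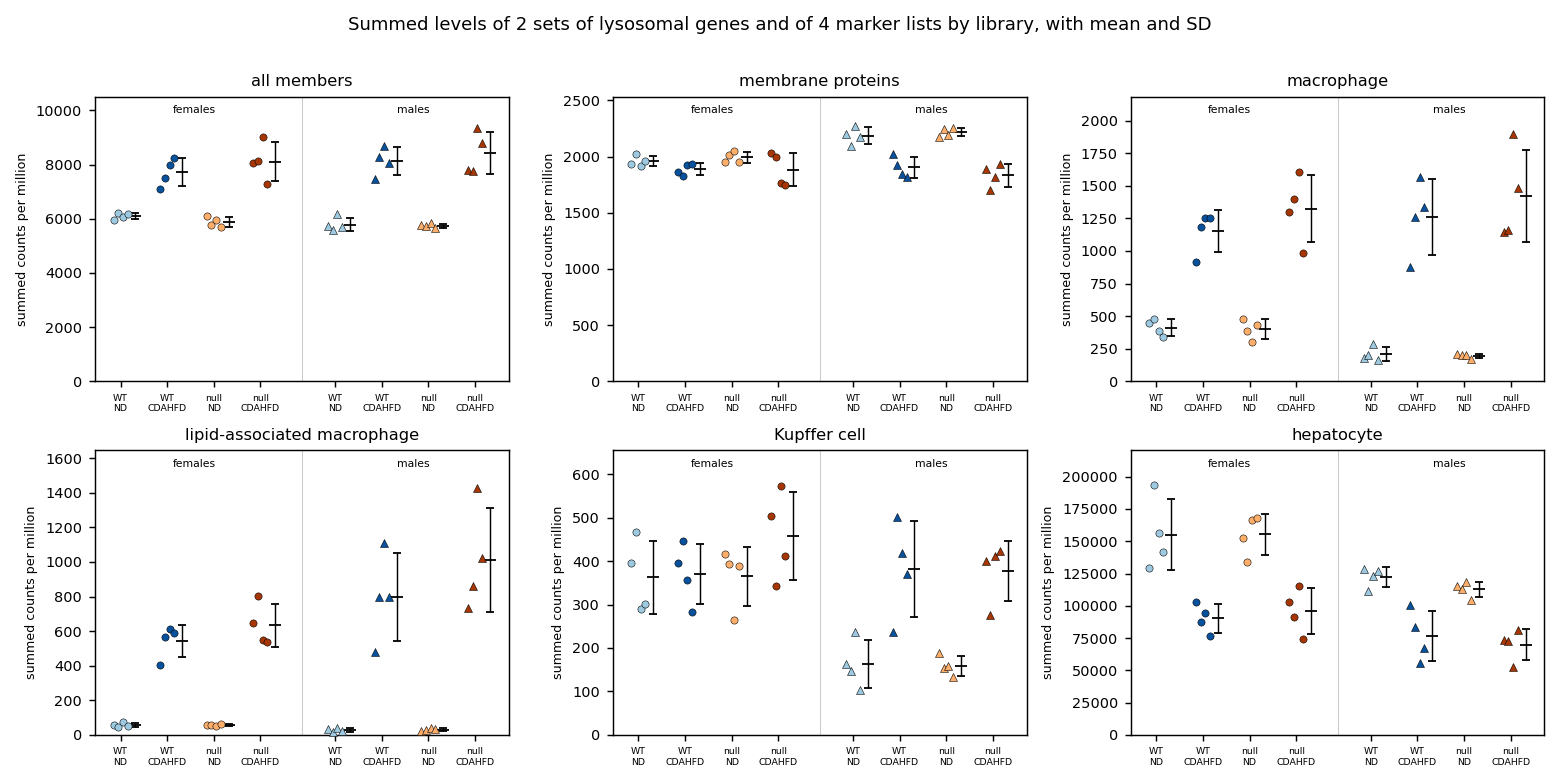
Summed TMM-scaled CPM (y axis) per library in the 8 groups for all 31 members, the 6 membrane proteins, and the macrophage, lipid-associated macrophage, Kupffer cell and hepatocyte marker lists. All members summed to 5954 to 6194 CPM in ND-fed and 7089 to 8244 CPM in CDAHFD-fed WT females, and the hepatocyte list to 129138 to 193347 and 76224 to 102617 CPM.

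Some other cell type markers moved with the diet as well, and their part in the lysosomal results was not tested. Of the 5 markers of lipid-associated macrophages, which gather in fatty liver, Gpnmb, Spp1, Cd9 and Mmp12 were higher in all 4 diet comparisons and Trem2 was listed at 0 in all 32 libraries. Their sum was 43.3 to 72.3 CPM on ND and 403 to 612 CPM on CDAHFD in WT females, and 13.8 to 40.6 and 480.1 to 1109 CPM in WT males. The markers of resident Kupffer cells were mixed: 1 of 5 was higher and 2 lower in WT females, 1 and 1 in null females, and 3 and 1 in males of each genotype, with Timd4 lower in all 4. Of 6 markers of hepatic stellate cells, 4 were higher in WT females, 5 in null females, 4 in WT males and 5 in null males, and 0 lower. Endothelial markers (5 tested) gave 0 higher and 2 lower in females of each genotype, 1 and 1 in WT males and 3 and 0 in null males, and of 4 cholangiocyte markers 1, 2, 1 and 1 were higher in the same order. Of 5 lymphocyte markers 2 were tested in females and 1 in males, with 1 higher in null females and 0 called otherwise. Of all genes, 13.9% to 20.3% were higher and 10.2% to 17.1% lower in the 4 comparisons. Several counts in these short lists lie near such shares.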

How the data were processed

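Liver mRNA from 32 mice was sequenced by the authors, who trimmed reads with Trimmomatic after FastQC, aligned them to GRCm38.p6 with GSNAP and counted them per gene with Subread featureCounts. Versions, strand and multimapping settings are not given in the sources used here. The deposited values are raw read counts, 1 table per sex, and were used as deposited. Of each table, 4 rows with a repeated symbol were left out, and no library pair held identical values.

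Genes were filtered with filterByExpr (count minimum 10, total 15), scaled by TMM and tested with edgeR 4.0.16 (R 4.3.3) quasi-likelihood fits over the 4 groups and 16 libraries of each sex, with 1 fit over 8 groups for differences between sexes. A gene was called at a Benjamini-Hochberg adjusted p under 0.05 over all genes tested. Values are TMM-scaled CPM. Levels between genes are per kilobase of the union of GENCODE exons of GRCm38. Library numbers are those of the labels, and values are listed in the order 1 to 4. Counting error, larger at low counts and in libraries near 2906411 reads, is part of the SE. Nothing states how mice map to cages or preparations, so p-values measure the spread between these samples, which may in part be technical. Replicate numbers did not pair the samples.

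All members are accounted for by role, and library values are given for called members with an absolute log2 diet effect over 1, for those called lower or differing by sex, and for Tfeb. Lamp1 is given in WT females only and by choice after its values were seen. Of the further lysosome genes the 3 called with the largest change in WT mice of each sex are named, with Atp6v0d2 added after its values were seen. The members, marker lists and further lysosome genes were chosen with earlier results of these data known.

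On counts simulated from these libraries the fit called 54 of 88 genes changed 2-fold and 103 of 110 changed 4-fold for the diet effect in WT females (13222 genes), and 55 of 87 and 100 of 106 in WT males (13456 genes). It also called 10 and 7 unchanged genes. Only 198 and 193 genes were changed there. In the data 1838 genes were called higher and 1354 lower in WT females, and 2425 and 2015 in WT males. These rates may therefore differ in the data. Alternatives were RLE scaling, library size scaling, DESeq2 1.42.0, other low-count filters, a threshold of 0.1, other sets of libraries in the fit, a replicate block, the omission of each library and, added after seeing the data, of 2 ND-fed WT male libraries together.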

Additional observations from a re-analysis of the deposited data

Results flagged for a closer look

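Library values that stood apart within a group of 4 were found for 7 of 248 combinations of member and group (2.82%), where chance gives about 1 in 20. Ctsa was at 323 CPM in library 3 of the CDAHFD-fed Cyp2b-null females, with the other 3 at 202 to 221 CPM. Without this library the rise of Ctsa in null females did not pass. Ctsz was at 368 CPM in library 4 of the CDAHFD-fed WT females (the others at 319 to 324 CPM), and Gusb at 18.3 CPM in library 3 of the ND-fed WT females (27.6 to 28.6 CPM). Among ND-fed Cyp2b-null males, Ctsb was at 763 CPM in library 1 (702 to 710.0 CPM), Ctsk at 1.24 CPM in library 3 (0.218 to 0.328 CPM) and Sgsh at 2.84 CPM in library 4 (7.39 to 8.08 CPM). Psap was at 466 CPM in library 3 of the ND-fed WT males (372 to 386 CPM). Leaving out the library in question did not end a call of Ctsz, Gusb, Ctsb, Ctsk, Sgsh or Psap.

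The diet effect differed between the sexes in the fit to both (edgeR, males minus females) for Laptm5, by 2.22 in WT (adjusted p = 9.73e-05) and 1.67 in Cyp2b-null mice (adjusted p = 0.00337), for Ctsc, by 1.001 (adjusted p = 0.00904) and 0.91 (adjusted p = 0.0100), and for Lgmn in null mice, by 0.89 (adjusted p = 0.0213).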

How the results depend on the processing

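The number of members called for diet was 16 in WT females (12 to 24 under the alternatives other than leaving out a library, 15 to 18 without 1 library), 21 in Cyp2b-null females (16 to 22, and 17 to 21), 20 in WT males (17 to 23, and 18 to 20) and 22 in null males (20 to 24, and 17 to 23). The low ends came from testing without a low-count filter in WT and null females. In WT males the low end came from leaving out the ND-fed WT male libraries 2 and 4 together, a choice made after seeing the data, where Ctsl, Gm2a, Asah1 and Tfec lost and Ctsh gained a call. Without that filter Ctsb, Tpp1, Man2b1 and Lamp1 did not pass in WT females, Ctsa, Man2b1, Sgsh, Smpd1 and Lamp1 in null females, Naglu in WT males, and Tpp1 and Manba in null males. In the fit to the 2 groups compared, Ctsa, Naglu, Sgsh and Smpd1 did not pass in null females, and in the fit to both sexes neither Sgsh in null females nor Naglu in WT males did. Without the libraries that the study left out of its heat maps, 18, 18, 20 and 20 members were called in WT females, null females, WT males and null males. Calls that these fits gained are named beside Ctsz, Ctsh, Gm2a, Scarb2, Tfec and Lgmn. With library size scaling, Ctsa, Ctsl, Ctsz, Gla, Manba, Naglu, Asah1, Smpd1, Mcoln1 and Tfec passed as well in WT females, Tpp1, Glb1, Manba and Tfeb in null females, Ctsa, Tpp1, Manba, Smpd1, Lamp1 and Laptm4a in WT males, and Ctsa, Smpd1 and Lamp1 in null males. The causes were not tested. For genotype and its interaction with diet, 0 members were called under every alternative run. By sex, 2 members differed in WT mice (2 to 3, and 2 to 3 without 1 library) and 3 in null mice (5 with DESeq2, 2 to 4 without 1 library). With the replicate block, 17, 21, 20 and 22 members were called for diet in the order above. To look for pairing, the group mean of each gene was first subtracted from the log2 CPM of each library. The remainders of same-numbered libraries of different groups correlated at -0.11 to 0.177 in females and -0.185 to 0.292 in males. Those of differently numbered libraries correlated at -0.181 to 0.153 and -0.364 to 0.2, so the numbers were not taken as pairs. Among members, the only called value that changed sign was Laptm4a in WT males, at 0.37 with library size scaling. For the further lysosome genes the diet calls went from 20 to 38 in WT females, from 32 to 52 in WT males and from 29 to 48 in null males with library size scaling, which shifts all genes upward. Leaving out 1 library gave 14 to 25 in WT females, 21 to 26 in null females, 25 to 32 in WT males and 25 to 31 in null males. Their genotype calls on ND in males went from 0 to 1 (Atp6v0d2) with DESeq2, 1 with no low-count filter, and 0 to 1 when 1 library was left out. The calls lost when 1 library was left out are named beside each member. Low counts limit Ctsk and Tfec most.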
